A study of Mus musculus with 20 samples.

Results

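The comparison is between 4 mice given cyclosporine A and 4 mice given a probiotic mixture during the same chemically induced colitis. The arrays were chosen by their titles, which name the condition and the treatment, and make up 8 of the 20 arrays of the study. Each array holds total RNA from the middle part of the colon of 1 female C57BL/6JOlaHsd mouse of about 11 weeks. Mice of every colitis group drank 3% dextran sulphate sodium (DSS) of 40 kDa for 5 days. The probiotic group (mice 3, 5, 7 and 8) received the strains L930BB and IM386 in 100 µl of saline through an intragastric tube, before the DSS and then together with it. The cyclosporine group (mice 4, 7, 9 and 10) received 25 mg/kg of the drug by mouth every day from day 1 to day 15, suspended in 2% methocel at 10 ml/kg. The other arrays are 4 mice with colitis and 4 healthy mice that received saline, called untreated below, and 4 healthy mice given the same probiotic strains, which enter the estimate of spread, the principal components and the plots by array but no comparison. The study has no healthy mice on cyclosporine and no group given methocel alone, so the drug, its carrier and its schedule cannot be told apart in these groups. The mice were kept 5 to a cage, and neither the cage of each mouse nor the day of tissue collection is given in the labels used here, so a shared cage and a treatment cannot be told apart.

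DSS injures the epithelium of the colon, and bacteria that reach the tissue then draw in neutrophils and monocytes, with T cells and B cells following. Cyclosporine A binds cyclophilin, and the complex blocks calcineurin, the phosphatase that lets NFAT factors enter the nucleus of an activated T cell and switch on cytokine genes. Probiotic bacteria act from the lumen, on the barrier and on the cells that sense microbes. Of the tissue's own genes, those for colonocyte transport (such as Slc26a3, the chloride and bicarbonate exchanger of the surface epithelium) were measured on every array, and 24 of 24 listed colonocyte genes passed the filter on dim probe sets. In RNA from a whole piece of colon, fewer cells of a type and less RNA per cell cannot be told apart.

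Values are log2 expression, and a difference is cyclosporine minus probiotic on that scale with its standard error (SE), so that a difference of 1 is 2-fold. Probiotic mouse 8 stood apart from the other mice of its group. Its mean correlation with them was 0.977, against 0.986 to 0.988 for the other 3. On the first principal component of all 20 arrays, which held 55.9% of the variance, it lay at 0.12. The other probiotic mice lay between 0.376 and 0.383 and the cyclosporine mice between -0.11 and -0.02. Untreated colitis mice lay between 0.02 and 0.28, a range that holds probiotic mouse 8 but not the other probiotic mice. Healthy mice of both groups lay between -0.25 and -0.16. Untreated healthy mouse 2 and untreated colitis mouse 6 also stood apart, so values were also computed without these 3 arrays. Median expression per array was 7.25 to 7.32 in the cyclosporine group and 7.32 to 7.36 in the probiotic group.

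Of 16739 genes tested, 1884 (11.3%) were higher and 2006 (12.0%) were lower in cyclosporine than in probiotic colitis, at a limma adjusted p under 0.05. The median difference over all genes was 0.01. Together these were 3890 genes (23.2%). Changes of at least 2-fold were seen for 396 lower genes (2.37% of those tested) and for 107 higher genes (0.639%). All 4 cyclosporine arrays lay below all 4 probiotic arrays for 1856 genes (11.1%) and above them for 1666 (9.95%). Without probiotic mouse 5 the number of higher genes was 1247, and without probiotic mouse 7 it was 1218. Without probiotic mouse 8 the counts were 2302 higher and 2280 lower, and without all 3 arrays that stood apart 2599 and 2443. Of all calls, 48.4% were in the higher direction, and 60.1% were when each array was centred on its median. Against untreated colitis, 1268 genes were higher (7.58%) and 934 lower (5.58%) in the cyclosporine group, 2202 in all (13.2%). In the probiotic group 356 were higher (2.13%) and 112 lower (0.669%), 468 in all (2.80%). Those comparisons share the untreated colitis mice, and their values are given side by side without being compared. A difference from untreated colitis given below without an adjusted p is a description and is not said to pass the test.

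The difference between the treatments ran opposite to the change that colitis itself brought in untreated mice, 2 contrasts that share no array. Of the 2006 genes lower in cyclosporine, 1080 (53.8%) were higher in untreated colitis than in untreated healthy colon, 6 were lower and 920 did not pass the test. Of the 1884 genes higher in cyclosporine, 1099 (58.3%) were lower in untreated colitis, 15 were higher and 770 did not pass. Colitis raised 1957 of the tested genes (11.7%) and lowered 2404 (14.4%), 4361 in all (26.1%). Among the 322 genes that colitis raised at least 2-fold, 291 were lower in cyclosporine than in probiotic mice and 0 were higher. Among the 135 that it lowered at least 2-fold, 127 were higher in cyclosporine and 0 were lower. Across the 16739 genes, which are not independent replicates and share the arrays of each contrast, Pearson's r between the contrasts was -0.799 and Spearman's rho -0.574.

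**Figure D1:**
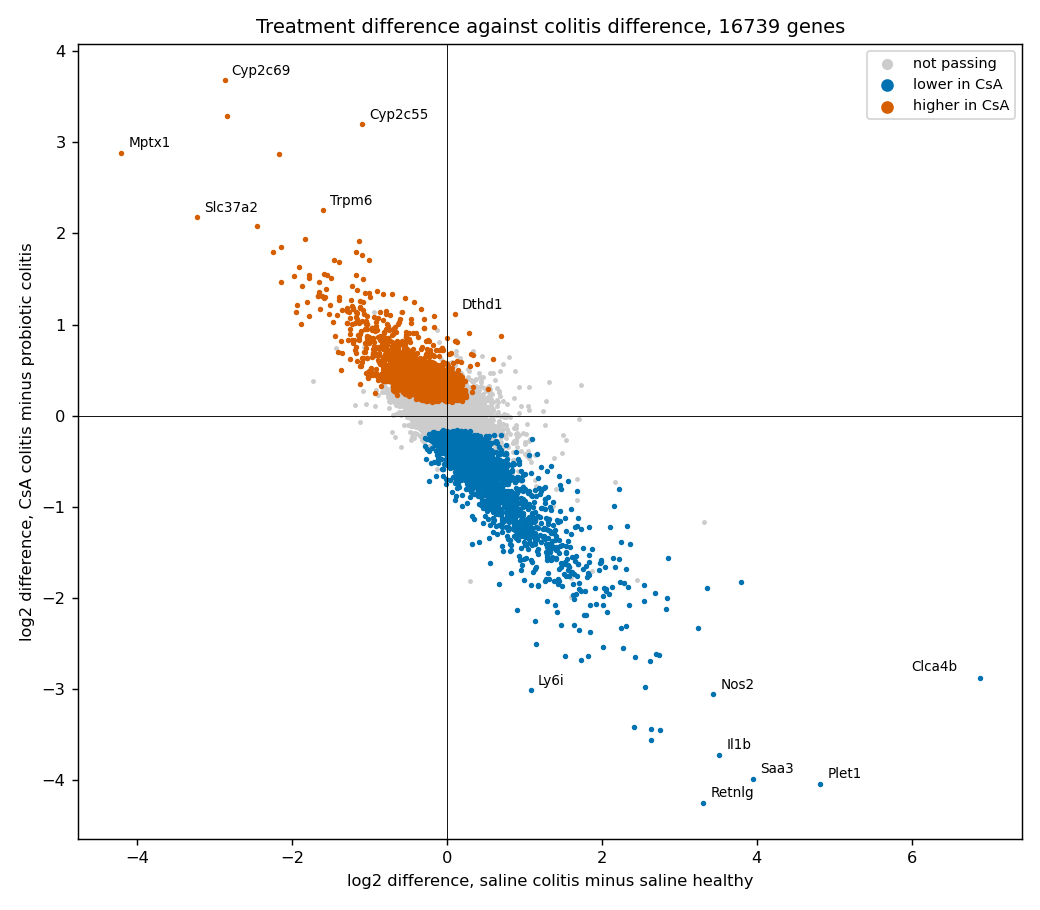
Each point is 1 of 16739 genes, with the log2 difference between untreated colitis and untreated healthy colon on the horizontal axis and the log2 difference between cyclosporine and probiotic colitis on the vertical axis. Genes lower in cyclosporine (blue, 2006) lie mostly to the right of 0 and genes higher in cyclosporine (orange, 1884) mostly to the left.

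Promoters are shown of 4 genes that were picked after their values were seen. The 4 genes lie among the most changed, and each holds a match to a searched motif. They are themselves counted in the shares of at least 2-fold changed genes given below, so their matches add nothing to those shares. The promoters are RefSeq windows of 300 bases on GRCm38.p6, from 250 bases before to 50 after the start site. They are read 5′ to 3′ on the gene's strand, with the match in capitals. S100a8 (chr3:90668821-90669120, plus strand) holds the PU.1 motif GAGGAAGT on its minus strand at -172, counted in bases from the start site. Saa3 (chr7:46715627-46715926, minus strand) holds the interferon response element (GAAA, then NN, then GAAA) at -125. Not in capitals, the Saa3 window also holds the NFAT core at -239 and -188 and a sterol response element at -67. Steap4 (chr5:7960222-7960521, plus strand) holds the NF-kB motif (GGG, then NN, then TTTCC) on its minus strand at -226. Not in capitals, the Steap4 window also holds the GAS motif (TTC, then NNN, then GAA) at -116. Cyp2c69 (chr19:39886720-39887019, minus strand) holds the HNF4 motif CAAAGTCCA at -75.
S100a8: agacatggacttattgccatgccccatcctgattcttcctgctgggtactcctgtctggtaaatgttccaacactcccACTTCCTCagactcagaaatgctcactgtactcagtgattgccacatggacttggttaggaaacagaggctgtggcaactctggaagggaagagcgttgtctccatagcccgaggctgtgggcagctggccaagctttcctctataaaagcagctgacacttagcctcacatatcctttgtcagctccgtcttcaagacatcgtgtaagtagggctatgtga
Saa3: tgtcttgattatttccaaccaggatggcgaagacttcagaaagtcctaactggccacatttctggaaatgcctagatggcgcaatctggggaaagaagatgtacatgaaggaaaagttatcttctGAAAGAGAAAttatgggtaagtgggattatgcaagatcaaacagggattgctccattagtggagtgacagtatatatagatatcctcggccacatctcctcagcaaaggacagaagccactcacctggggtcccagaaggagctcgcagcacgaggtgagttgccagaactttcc
Steap4: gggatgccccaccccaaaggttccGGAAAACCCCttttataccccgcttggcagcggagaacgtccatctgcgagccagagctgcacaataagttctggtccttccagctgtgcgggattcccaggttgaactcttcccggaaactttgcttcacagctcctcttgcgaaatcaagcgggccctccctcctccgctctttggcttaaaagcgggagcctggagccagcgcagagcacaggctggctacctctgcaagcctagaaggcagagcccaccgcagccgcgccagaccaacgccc
Cyp2c69: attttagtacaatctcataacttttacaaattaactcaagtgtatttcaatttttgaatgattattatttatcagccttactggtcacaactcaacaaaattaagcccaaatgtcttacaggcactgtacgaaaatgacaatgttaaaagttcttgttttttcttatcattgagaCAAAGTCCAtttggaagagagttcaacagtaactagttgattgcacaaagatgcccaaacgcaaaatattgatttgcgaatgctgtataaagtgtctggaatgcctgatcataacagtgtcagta

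PU.1 is a factor of myeloid and B cells, and its motif stood in 35 of the 288 promoter windows of genes at least 2-fold lower in cyclosporine (12.2%), against 2.92% of the windows of all tested genes and 3.28% of all 27025 windows. The interferon response element stood in 34 of those 288 windows (11.8%), against 3.01% of tested and 3.49% of all windows. The NF-kB motif stood in 12 of them (4.17%), against 1.63% and 1.62%. Among the 83 windows of genes at least 2-fold higher in cyclosporine, the same motifs stood in 5 (6.02%), 1 (1.20%) and 1 (1.20%). The HNF4 motif, of a factor of the gut and liver epithelium, stood in 2 of those 83 windows (2.41%), and Cyp2c69 is among those 2. It stood in 3 of the 288 windows of the lower genes (1.04%), against 0.397% of tested and 0.477% of all windows. Among all genes higher in cyclosporine, of any size, HNF4 stood in 7 of 1458 windows (0.480%). Among all lower genes it stood in 13 of 1548 (0.840%). The CDX motif TTTATG, of the homeobox factors of the intestine, stood in 15.7% of the higher and 11.5% of the lower windows, against 7.48% of tested and 12.1% of all windows. The NFAT core TGGAAA, whose reverse complement shares the letters TTTCC with the NF-kB motif, stood in 27.4% of the lower and 25.3% of the higher windows, against 17.9% of tested and 21.5% of all windows. Every motif was searched on both strands in the first listed window of each gene, and a match is a description of the letters only.

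**Figure D2:**
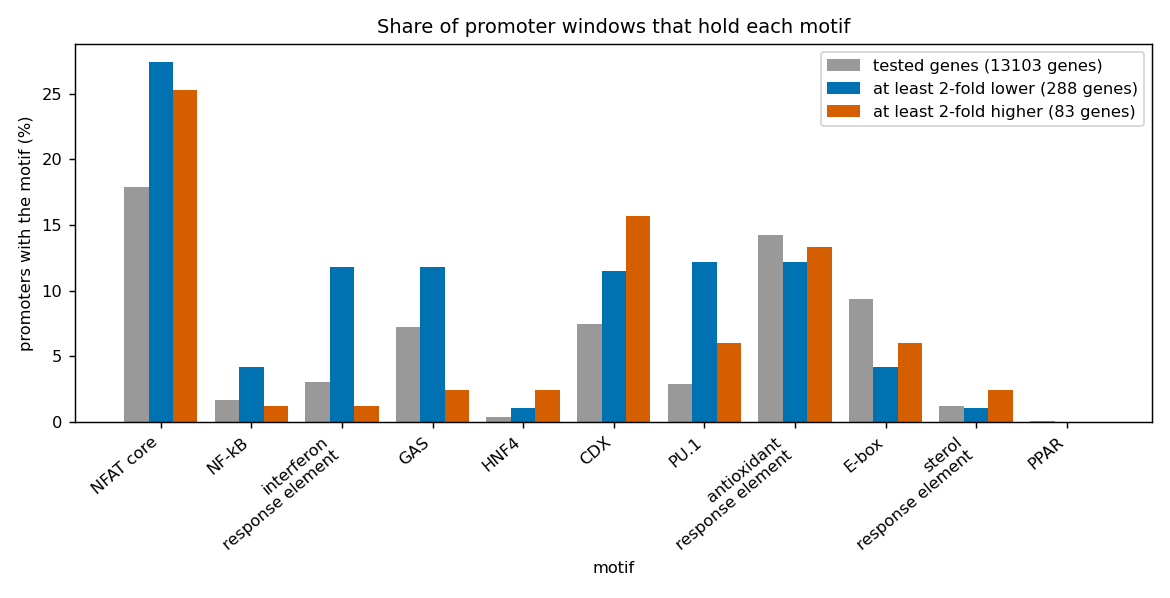
Bars give the percent of promoter windows that hold each of 11 motifs, for all tested genes with a window (grey, 13103 genes), genes at least 2-fold lower in cyclosporine (blue, 288) and genes at least 2-fold higher (orange, 83). The blue bars of PU.1 (12.2%) and of the interferon response element (11.8%) stand above the grey bars (2.92% and 3.01%).

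Neutrophil genes had the lowest median of the 39 gene lists described. Of 16 tested genes, 15 were lower and none was higher, with a median of -2.28, and the list's median was 1.66 in untreated colitis against healthy colon. Retnlg, a resistin-like protein of neutrophils, read 9.78, 9.29, 10.16 and 5.02 in probiotic mice 3, 5, 7 and 8, and 4.48, 4.30, 4.50 and 4.00 in cyclosporine mice 4, 7, 9 and 10. Probiotic mouse 8 lay near the cyclosporine mice and still above each of them. The difference was -4.24 ± 1.02 (SE, n = 4 and 4, adjusted p = 0.0053). S100a8, a subunit of calprotectin, read 9.70, 8.75, 9.53 and 5.66 in the probiotic mice and 4.80 to 5.07 in the cyclosporine mice, with the same low probiotic mouse and no overlap. S100a9, the other subunit, differed by -2.65 ± 0.66 and S100a8 by -3.45 ± 0.82. Clec4e, a receptor for microbial and cell debris glycolipids, differed by -3.55 ± 0.86.

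The receptors by which neutrophils are produced and recruited were lower as well. Cxcr2, the receptor for CXC chemokines, read 9.52, 9.22, 9.73 and 6.71 in the probiotic mice and 5.80 to 6.39 in the cyclosporine mice. Csf3r, the receptor for the granulocyte growth factor, differed by -2.30 ± 0.43. Cd177, a surface protein of neutrophils, was a member in which probiotic mouse 8 did not stand low, at 11.37 beside 11.12 to 11.16 in the others and 9.13 to 10.08 in the cyclosporine mice. The mean of the 16 genes was 8.94, 8.59, 9.15 and 6.40 in the probiotic mice and 5.84 to 6.05 in the cyclosporine mice, against 5.63 to 5.80 in untreated healthy and 6.25 to 9.39 in untreated colitis mice. Untreated colitis thus spanned nearly the whole range, the cyclosporine mice lay just above healthy colon, and probiotic mouse 8 lay between them and its own group. In Retnlg, Clec4e, S100a8 and S100a9 the cyclosporine mean lay below 5.30, the level of the filter, where background compresses changes.

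Of 19 tested inflammatory cytokines and chemokines, 11 were lower and none higher, with a median of -0.96. Il1b, the cytokine released through the inflammasome, read 11.30, 11.88, 12.48 and 9.46 in the probiotic mice and 7.40 to 7.73 in the cyclosporine mice. All cyclosporine values lay below all probiotic values, at -3.72 ± 0.71 (adjusted p = 0.00111). Il1a, the alarmin of the same family, differed by -2.97 ± 0.76, and Tnf, a central macrophage cytokine, by -1.74 ± 0.24. Ccl8 and Ccl2, which attract monocytes, differed by -1.96 ± 0.31 and -1.68 ± 0.38. Cxcl5, which attracts neutrophils through Cxcr2, differed by -2.54 ± 0.47, but cyclosporine mouse 10 at 7.71 lay above probiotic mouse 8 at 7.47. Without probiotic mouse 5 or probiotic mouse 7, 7 of the 19 genes were lower, and without probiotic mouse 8 1 was higher.

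Il1b differed from untreated colitis by -2.49 ± 0.71 with cyclosporine (adjusted p = 0.0262) and by 1.23 ± 0.71 with probiotic, which did not pass the test (adjusted p = 0.388). Retnlg differed by -2.83 ± 1.02 and 1.41 ± 1.02, and neither passed (adjusted p = 0.0723 and 0.507). Ly6i, a surface protein of activated myeloid cells, was among the most reduced genes, at -3.01 ± 0.57. It read 9.68, 8.71, 8.88 and 5.50 in the probiotic mice and 5.04 to 5.30 in the cyclosporine mice. The cyclosporine means of Ly6i, Il1a and Sirpb1c also lay below the level of the filter. Acod1, which makes itaconate in activated macrophages, differed by -3.42 ± 0.90. Sirpb1c and Tarm1, receptors of myeloid cells, differed by -2.69 ± 0.49 and -2.63 ± 0.63.

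**Figure D3:**
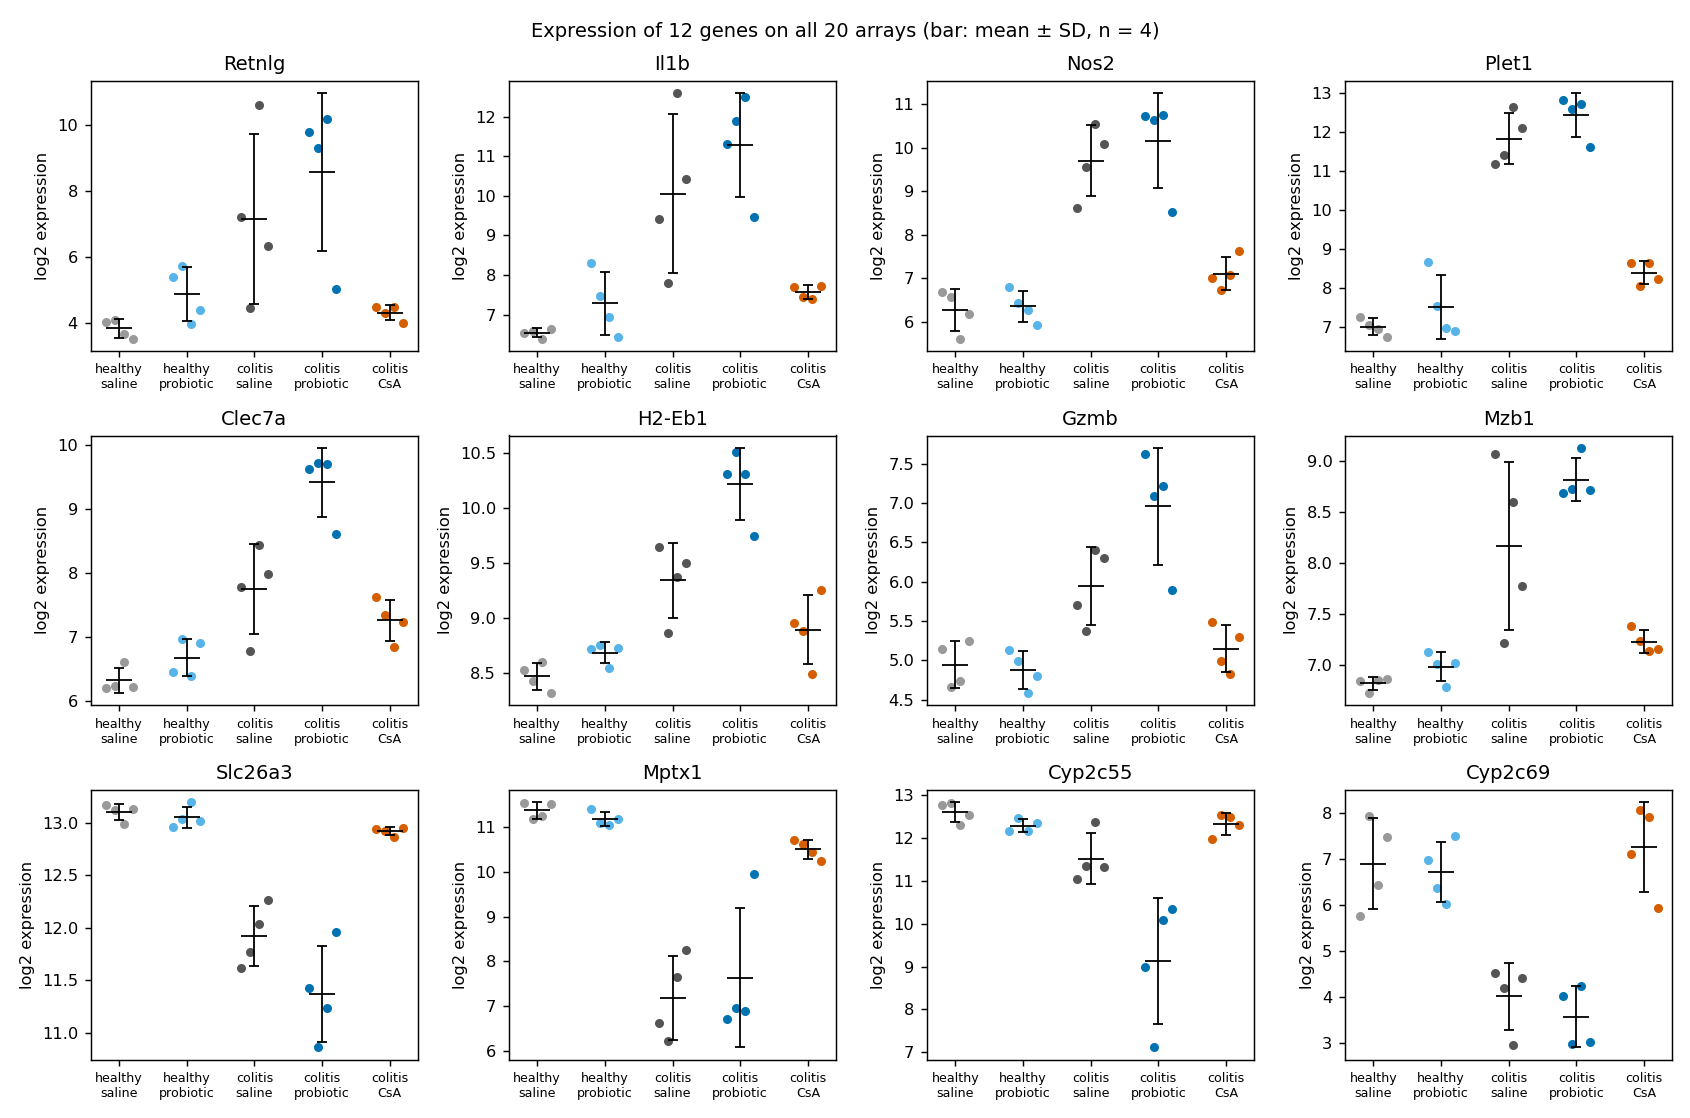
Log2 expression of 12 genes on each of the 20 arrays, in panels of 5 groups of 4 mice, with bars for the mean and SD. In Plet1 and Slc26a3 the cyclosporine mice form a tight cluster away from every probiotic mouse, whereas in Retnlg and Mptx1 probiotic mouse 8 (the last of its group) lies toward the cyclosporine mice.

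Macrophage and monocyte genes were lower in cyclosporine for 20 of 26 tested members, with none higher and a median of -1.03. Clec7a, the beta-glucan receptor Dectin-1, read 9.63, 9.72, 9.71 and 8.61 in the probiotic mice and 7.62, 7.35, 6.85 and 7.24 in the cyclosporine mice, without overlap. Its difference was -2.15 ± 0.29 (adjusted p = 8.3e-05). Clec12a, an inhibitory lectin of myeloid cells, differed by -1.85 ± 0.22, Ccr2, the receptor that brings monocytes from the blood, by -1.79 ± 0.26, and Csf1r, the growth factor receptor of macrophages, by -1.34 ± 0.20. Mpeg1, a pore-forming protein of phagocytes, differed by -1.41 ± 0.19. The 6 members that did not pass were Cd68 at -0.62, Timd4 at -0.24, Ms4a7 at -0.15, Mrc1 at -0.12, Mertk at 0.08 and Cd163 at 0.08. The macrophage list therefore did not move as a whole. The median difference of this list from untreated colitis was 0.85 with probiotic and -0.18 with cyclosporine. Among dendritic cell genes 7 of 13 were lower, with Itgax (the integrin CD11c) at -0.88 ± 0.13 and Irf8, a factor these cells need, at -0.89 ± 0.14. The 6 others did not pass. They were Siglech at -0.47, Zbtb46 at -0.21, Xcr1 at -0.085, Batf3 at -0.04, Cd209a at 0.02 and Ccl17 at 0.20.

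Every tested gene of the interferon gamma and antigen presentation list, 23 of 23, was lower in cyclosporine, with a median of -1.28. Of these, 14 were lower without overlap of the arrays, as were 11.1% of all tested genes. H2-Ab1, a chain of the MHC class II molecule, read 12.61, 12.72, 12.63 and 11.95 in the probiotic mice and 11.39, 11.11, 10.81 and 11.47 in the cyclosporine mice. H2-Eb1, another class II chain, differed by -1.32 ± 0.17. The immunoproteasome subunits Psmb8 and Psmb10 differed by -1.31 ± 0.17 and -0.74 ± 0.11, and Tap2, which carries peptides into the endoplasmic reticulum, by -0.79 ± 0.12. The mean of the 23 genes was 9.83, 9.77, 9.68 and 8.51 in the probiotic mice and 7.91 to 8.30 in the cyclosporine mice, so the groups did not overlap in the mean.

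Of all tested genes 12.0% were lower, and genes of the type I interferon response passed the test in 2 of 17 cases. Both were lower, and the list median was -0.22. They were Ddx58, the RNA sensor RIG-I, at -0.67 ± 0.12 and Usp18, which removes the ubiquitin-like modifier ISG15, at -0.95 ± 0.27. The call for Usp18 was lost without probiotic mouse 3 (adjusted p = 0.0648), mouse 5 (0.0566) or mouse 7 (0.0509), and 1 gene of the list then passed. Without probiotic mouse 8 the number lower was 6, and without the 3 arrays that stood apart it was 7. Probiotic mouse 8 had a list mean of 7.44, the other probiotic mice 8.14 to 8.27 and the cyclosporine mice 7.49 to 7.98. Of the list, 10 of 17 genes were higher in untreated colitis than in healthy colon.

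T cell genes were lower in cyclosporine for 13 of 15 tested members, with none higher and a median of -0.69. Cd3g, a chain of the T cell receptor complex, read 8.59, 8.87, 8.40 and 8.23 in the probiotic mice and 7.01, 6.75, 6.70 and 7.20 in the cyclosporine mice, against means of 7.71 in untreated colitis and 5.87 in healthy colon. No cyclosporine mouse reached a probiotic mouse, at -1.61 ± 0.27 (adjusted p = 0.000452). Cd28, the co-stimulatory receptor, differed by -0.89 ± 0.14 and from untreated colitis by -0.02 with cyclosporine and 0.87 with probiotic. Cd5, a modulator of receptor signalling, differed by -0.70 ± 0.11, Zap70, the kinase next to the receptor, by -0.50 ± 0.11, and Thy1, a surface protein of T cells and other cells, by -0.69 ± 0.16. Without probiotic mouse 5 or cyclosporine mouse 7, 8 of the 15 genes were lower, and without cyclosporine mouse 10 1 was higher.

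Genes that calcineurin and NFAT switch on in activated T cells were lower for 10 of 16 tested members, with none higher. The median was -0.62, beside -0.69 for T cell genes. The list has 24 genes, and Il2, Il3, Il4, Il21 and 4 others were not tested. The 6 that did not pass were Egr3 at -0.46, Nr4a3 at -0.43, Egr2 at -0.28, Pdcd1 at -0.24, Il13 at 0.12 and Il5 at 0.16. Il2ra, the high-affinity chain of the interleukin 2 receptor, read 8.11, 8.37, 7.96 and 7.51 in the probiotic mice and 6.88, 6.65, 6.57 and 6.92 in the cyclosporine mice. The groups were apart, at -1.23 ± 0.18. Ctla4 and Tigit, inhibitory receptors of activated and regulatory T cells, differed by -1.23 ± 0.18 and -1.22 ± 0.19. Icos, a co-stimulatory receptor, differed by -1.20 ± 0.18, and Tnfrsf9, the activation marker 4-1BB, by -1.06 ± 0.18. Against untreated colitis Il2ra differed by -0.66 with cyclosporine and 0.57 with probiotic, and the list medians were -0.32 and 0.39. Regulatory T cell genes, which share Ctla4, Il2ra and Icos with this list, were lower for 7 of 9 tested members.

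Ifng, the cytokine of activated T and NK cells and a member of the same list, was not among the genes the rule chose and is given because of the list of its targets. It read 6.25, 6.39, 6.52 and 5.44 in the probiotic mice and 5.37, 5.43, 5.60 and 5.39 in the cyclosporine mice, a difference of -0.70 ± 0.16 (adjusted p = 0.00411). Probiotic mouse 8 lay within the range of the cyclosporine mice. Genes of cytotoxic and NK cells were lower for 9 of 12 tested members, with a median of -0.64. Gzmb, the granzyme of killer cells, read 7.62, 7.09, 7.21 and 5.89 in the probiotic mice and 4.83 to 5.48 in the cyclosporine mice. The cyclosporine values of Gzmb and Ifng lay near 5.30, the level of the filter, where background compresses changes. Gzma differed by -1.85 ± 0.29 and Il2rb, a chain of the receptors for interleukins 2 and 15, by -1.27 ± 0.18.

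The drug's own pathway showed smaller differences in both directions. Of 19 tested cyclophilin, calcineurin and NFAT genes, 6 were lower and 1 was higher, with a median of -0.05. Ppp3cc, a catalytic subunit of calcineurin, read 8.16, 8.32, 8.04 and 8.23 in the probiotic mice and 7.19, 7.07, 7.34 and 7.65 in the cyclosporine mice, apart by -0.88 ± 0.16 (adjusted p = 0.000878). The other catalytic subunits Ppp3ca and Ppp3cb differed by 0.12 ± 0.07 and 0.04 ± 0.07 and did not pass. Nfatc1, a factor whose own gene NFAT induces, was lower, at -0.55 ± 0.13 without overlap, whereas Nfatc2, Nfatc3, Nfatc4 and Nfat5 differed by -0.21 to 0.10 and did not pass. The cyclophilins Ppib and Ppic were lower, at -0.33 ± 0.08 and -0.42 ± 0.11, and Ppid, Ppif and Ppig, at 0.14 ± 0.07, 0.41 ± 0.16 and 0.20 ± 0.17, did not pass. Ppia, the main cytosolic cyclophilin that the drug binds, was not tested here.

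Regulators of calcineurin were split. Rcan2, an inhibitor of the enzyme, was higher in cyclosporine by 0.68 ± 0.13 without overlap, reading 6.33 to 6.85 against 5.79 to 6.30. Rcan1, whose transcription calcineurin itself drives, differed by -0.18 ± 0.11 and did not pass. Cabin1, another inhibitor, differed by -0.19 ± 0.07 and did not pass either. Akap5, a scaffold that holds calcineurin at membranes, was lower, at -0.25 ± 0.08, as was Fkbp1a, the receptor of the drug tacrolimus, at -0.19 ± 0.06. The call for Fkbp1a was lost when any of the 8 arrays other than probiotic mouse 8 was left out (adjusted p 0.0566 to 0.126). The call for Akap5 was lost without probiotic mouse 3, 5 or 7 or cyclosporine mouse 4 or 9 (adjusted p 0.0628 to 0.11). Fkbp5, which belongs to the same protein family, differed by 0.17 ± 0.19. Of this list, 3 genes were higher in cyclosporine without probiotic mouse 8, and 2 without cyclosporine mouse 10. The list's median was -0.16 without cyclosporine mouse 10 and -0.01 without cyclosporine mouse 4 or 9.

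B cell and plasma cell genes were lower in cyclosporine for 16 of 17 tested members, with a median of -1.32. Of these, 10 were lower without overlap of the arrays, against 11.1% of all tested genes. Mzb1, a chaperone of antibody-secreting cells, read 8.69, 8.72, 9.12 and 8.71 in the probiotic mice and 7.38, 7.23, 7.14 and 7.15 in the cyclosporine mice. The groups were well apart, at -1.59 ± 0.25 (adjusted p = 0.000263), and untreated colitis lay between them at 8.16. Cyclosporine mouse 10 was the highest of its group in this list, with a mean of 8.52 over the 17 genes against 7.17 to 7.66 in the others and 8.88 to 9.18 in the probiotic mice. Cxcl13, the chemokine that gathers B cells into follicles, read 11.40 in that mouse and 9.79 to 10.35 in the other cyclosporine mice, against 11.90 to 12.09 with probiotic. Cd22, an inhibitory receptor of B cells, differed by -1.74 ± 0.40, Pou2af1, a B cell coactivator, by -1.40 ± 0.26, and Fcrla, of germinal centre B cells, by -1.17 ± 0.20. The middle colon holds lymphoid follicles, and how many each piece held was not measured.

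**Figure D4:**
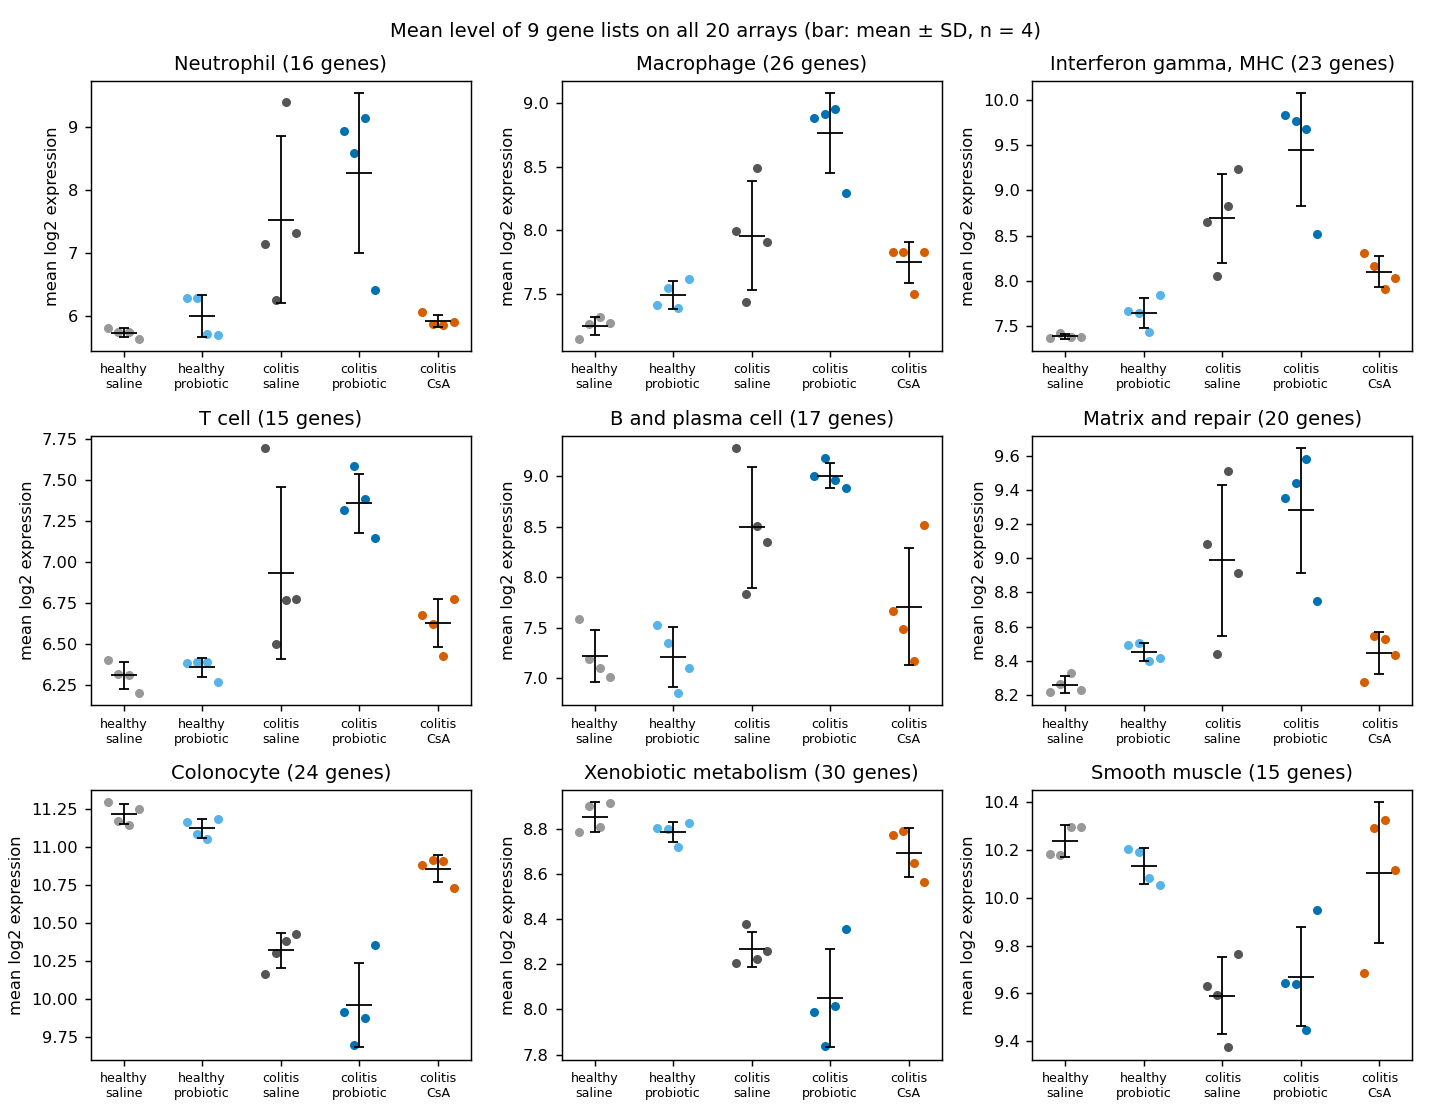
Mean log2 expression of 9 gene lists on each of the 20 arrays, by group, with bars for the mean and SD of 4 mice. The mean of the cyclosporine mice lies between those of untreated healthy and probiotic colitis mice in the immune panels, and in the B and plasma cell panel cyclosporine mouse 10 (8.52) lies apart from the other 3 (7.17 to 7.66).

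Of 15 antimicrobial genes 9 were lower in cyclosporine and none higher (1 without cyclosporine mouse 10), with a median of -1.21. Saa3, the serum amyloid of inflamed tissue, read 11.56, 10.84, 11.49 and 7.21 in the probiotic mice and 6.11 to 6.50 in the cyclosporine mice, at -3.98 ± 0.97. Nos2, the inducible nitric oxide synthase, read 10.73, 10.64, 10.75 and 8.53 and then 6.74 to 7.63, at -3.06 ± 0.43. Probiotic mouse 8 was the lowest of its group in both genes, and neither gene overlapped. Steap4, a metalloreductase of inflamed epithelium, read 9.30, 9.68, 9.52 and 8.53 with probiotic and 7.08 to 7.47 with cyclosporine (adjusted p = 6.94e-06). Duox2, the epithelial peroxide source, differed by -1.13 ± 0.15 with values of 10.32 to 10.46 in all 4 probiotic mice and 9.09 to 9.44 in the cyclosporine mice. Hp, haptoglobin, differed by -2.62 ± 0.50 and Dmbt1, a secreted scavenger protein, by -0.54 ± 0.09.

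Plet1, a marker of epithelium that covers wounds in the colon, read 12.81, 12.60, 12.71 and 11.60 in the probiotic mice and 8.63, 8.05, 8.64 and 8.24 in the cyclosporine mice. It was among the clearest differences, at -4.04 ± 0.35 (adjusted p = 2.88e-06), and the cyclosporine mice stayed above the healthy mean of 7.01. Clca4b, of the chloride channel accessory family and the gene that colitis raised most among those named (6.88), read 12.79 to 13.05 with probiotic and 10.97, 8.47, 10.41 and 10.40 with cyclosporine. It thus remained far above its healthy mean of 5.81 in every cyclosporine mouse. In the list of wound epithelium 6 of 18 tested genes were lower and 1 was higher. Ly6d differed by -1.60 ± 0.31 and Sprr1a, a protein of squamous epithelium, by -1.22 ± 0.23. Gsdmc2, a gasdermin of colonocytes, was the higher gene at 1.54 ± 0.32, and Gsdmc3, next to it in the gene family, differed by 1.56 ± 0.27. Gasdermin C genes are similar in sequence, and their probe sets may not tell them apart.

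Genes of mature colonocytes were higher in cyclosporine for 16 of 24 members, with none lower and a median of 0.89. Slc26a3 read 11.42, 10.86, 11.24 and 11.96 in the probiotic mice and 12.94, 12.92, 12.86 and 12.95 in the cyclosporine mice. The cyclosporine values lay within 0.1 of each other, close to the healthy mean of 13.10 and above the untreated colitis mean of 11.92, and differed from probiotic by 1.55 ± 0.16 (adjusted p = 1.35e-05). Car1 and Car2, carbonic anhydrases of the surface cells, differed by 1.14 ± 0.12 and 0.96 ± 0.12. Scnn1a, a subunit of the epithelial sodium channel, differed by 0.68 ± 0.08, and Slc26a2, the sulphate transporter, by 1.14 ± 0.16.

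Mptx1, Slc37a2 and Fxyd4 of the colonocyte list, and genes of other functions, were among the largest increases. Mptx1, a pentraxin of the colonic epithelium, read 6.70, 6.96, 6.89 and 9.96 in the probiotic mice and 10.72, 10.62, 10.45 and 10.25 in the cyclosporine mice, at 2.88 ± 0.52. Probiotic mouse 8 again lay nearest the cyclosporine mice. Slc37a2, a sugar phosphate exchanger, differed by 2.18 ± 0.33, and Trpm6, the magnesium channel, by 2.26 ± 0.25. Fxyd4, a regulator of the sodium pump, read 5.86 to 6.73 with probiotic and 7.92 to 8.56 with cyclosporine, and differed from untreated colitis by -1.31 with probiotic and 0.54 with cyclosporine. Sycn, syncollin of secretory granules, differed by 1.80 ± 0.18, Tppp, a tubulin polymerisation protein, by 1.69 ± 0.20, Nxpe2 by 1.79 ± 0.26 and Hao2, a peroxisomal hydroxyacid oxidase, by 1.92 ± 0.27.

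Genes of drug and steroid metabolism were higher for 18 of 30 tested members and lower for 3, with a median of 0.42. Cyp2c55, a colonic cytochrome P450, read 8.99, 7.11, 10.10 and 10.34 in the probiotic mice and 11.98, 12.54, 12.51 and 12.30 in the cyclosporine mice, at 3.20 ± 0.46 (adjusted p = 0.000149). Probiotic mouse 5 was the lowest and no array overlapped. Cyp2c55 differed from untreated colitis by -2.39 with probiotic and 0.81 with cyclosporine, and Cyp2c69 by -0.45 and 3.23. Cyp2c69 read 4.03, 2.98, 4.25 and 3.02 with probiotic, under the filter level, and 7.10, 8.06, 7.91 and 5.94 with cyclosporine. Genes of the Cyp2c family are similar in sequence, so cross-hybridisation between them was not separated here.

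Conjugating enzymes and exporters belonged to the same group. Sult1a1, a sulphotransferase, read 8.51, 8.47, 8.64 and 10.02 with probiotic and 10.75 to 11.05 with cyclosporine, at 1.93 ± 0.23. Gstm1, a glutathione transferase, differed by 1.01 ± 0.12, Cyp2f2 by 1.70 ± 0.25, Cyp2d12 by 1.63 ± 0.24 and Maoa, the monoamine oxidase, by 0.67 ± 0.11. Abcb1a, the epithelial P-glycoprotein that also exports cyclosporine, read 9.45, 9.61, 9.91 and 10.64 with probiotic and 11.06 to 11.45 with cyclosporine, at 1.38 ± 0.19. Its mean was 11.88 in healthy colon and 10.72 in untreated colitis, so the cyclosporine mice lay between these. Abcb1b, its close paralogue, was picked after its value was seen and was lower, at -0.88.

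Fatty acid oxidation genes were higher for 10 of 25 tested members and lower for 1, with a median of 0.25. Acadm, the medium-chain dehydrogenase, read 10.25, 10.35, 10.30 and 10.66 with probiotic and 10.85 to 10.98 with cyclosporine, at 0.51 ± 0.10. Cpt2, which takes fatty acids into the matrix of mitochondria, differed by 0.39 ± 0.10, Acaa2, the last enzyme of the cycle, by 0.46 ± 0.11, and Etfdh, which passes its electrons on, by 0.36 ± 0.08. Ppargc1a, a coactivator of mitochondrial genes, differed by 0.97 ± 0.23, with cyclosporine mouse 10 at 9.51 below probiotic mouse 8 at 9.75. The respiratory chain itself passed in 3 of 22 cases, with 1 gene higher, 2 lower and a median of 0.03. No respiratory gene was higher without probiotic mouse 3, 5 or 7 or cyclosporine mouse 4, 7 or 10, and 2 were without probiotic mouse 8. The number lower was 1 without probiotic mouse 3 or 7 or cyclosporine mouse 4 or 7. The lower fatty acid gene, Angptl4, a lipase inhibitor, at -0.80, lost its call without probiotic mouse 3, 5 or 7 or cyclosporine mouse 7, 9 or 10.

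Goblet cell genes did not move as a group, with 2 of 18 higher, 4 lower and a median of 0.08. Clca1, secreted with mucus, was higher by 0.47 ± 0.10, and Muc1, a membrane mucin, was lower, at -0.60 ± 0.15. Retnlb, the goblet cell resistin-like protein induced by inflammation, read 9.16, 7.71, 7.69 and 7.01 with probiotic and 6.89, 5.87, 5.70 and 5.55 with cyclosporine, at -1.89 ± 0.41. It differed from untreated colitis by -0.89 with probiotic and -2.78 with cyclosporine. The counts of the list were 1 higher and 2 lower without probiotic mouse 3, 5 or 7 or cyclosporine mouse 7, 1 higher without cyclosporine mouse 4 or 9 and 2 lower without cyclosporine mouse 10. Enteroendocrine and tuft cell genes were higher for 5 of 15 tested members, led by Insl5, a peptide of colonic L cells, at 0.86 ± 0.17, and this count was 3 without probiotic mouse 3 or 5 or cyclosporine mouse 4 or 9.

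Tight junction genes were higher for 4 of 22 tested members, against 11.3% of all tested genes, with a median of 0.11. Cldn1, a claudin among these 4, lost its call without probiotic mouse 3, 5 or 7 or cyclosporine mouse 4, 7 or 10. Tjp1, the scaffold ZO-1, differed by 0.36 ± 0.07 without overlap and Ocln, occludin, by 0.53 ± 0.13, with probiotic mouse 8 at 10.63 above cyclosporine mouse 10 at 10.57. Stem cell and Wnt genes passed in 4 of 15 cases, with Znrf3, a Wnt receptor ligase, higher by 0.35 ± 0.08 and Prom1 and Smoc2, genes of crypt cells, lower, at -0.60 ± 0.16 and -0.34 ± 0.08. Without probiotic mouse 8 the number higher in this list was 4 in place of 1. Of all tested genes 12.0% were lower. Cell cycle genes were lower for 4 of 20 members, led by Rrm2, a subunit of ribonucleotide reductase, at -0.61 ± 0.16. That count was 1 without probiotic mouse 3 or 5 or cyclosporine mouse 4 or 7, 2 without probiotic mouse 7 and 7 without the 3 arrays that stood apart.

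Collagen and matrix genes were lower for 16 of 20 tested members and higher for 1, with a median of -0.71. Col1a2, a chain of type I collagen, read 10.19, 10.39, 10.32 and 9.72 with probiotic and 9.33, 9.43, 9.43 and 9.36 with cyclosporine. Col1a1 and Col3a1 differed by -0.87 ± 0.15 and -0.76 ± 0.13, Col4a1, of basement membranes, by -0.74 ± 0.13, and Mmp14, a membrane collagenase, by -0.69 ± 0.11. The higher gene, Postn, periostin, at 0.36, lost its call without probiotic mouse 3 or 7 or cyclosporine mouse 7 or 9. Endothelial genes were lower for 8 of 15 members, among them Pecam1 at -0.65 ± 0.17 and Kdr, a receptor for VEGF, at -0.47 ± 0.11. Pecam1 differed from untreated colitis by 0.58 with probiotic and -0.07 with cyclosporine.

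Genes of protein folding in the endoplasmic reticulum were lower for 13 of 16 tested members, with none higher (1 without probiotic mouse 8) and a median of -0.47. Sdf2l1, a cofactor of the chaperone BiP, read 9.08, 9.02, 9.01 and 8.67 with probiotic and 7.97 to 8.18 with cyclosporine, at -0.85 ± 0.10. Hsp90b1, the chaperone GRP94, read 12.36 to 12.45 and then 11.90 to 12.00, and probiotic mouse 8 at 12.39 lay with its group. Calr and Pdia6, which fold secreted proteins, differed by -0.50 ± 0.07 and -0.54 ± 0.08. Genes of Toll-like receptors and NF-kB were lower for 16 of 27 tested members, with Tlr2, the receptor for bacterial lipoproteins, at -1.01 ± 0.15, Nod2, a sensor of cell wall fragments, at -0.60 ± 0.12, and the NF-kB feedback genes Tnfaip3 and Nfkbie at -0.72 ± 0.12 and -1.24 ± 0.19.

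**Figure D5:**
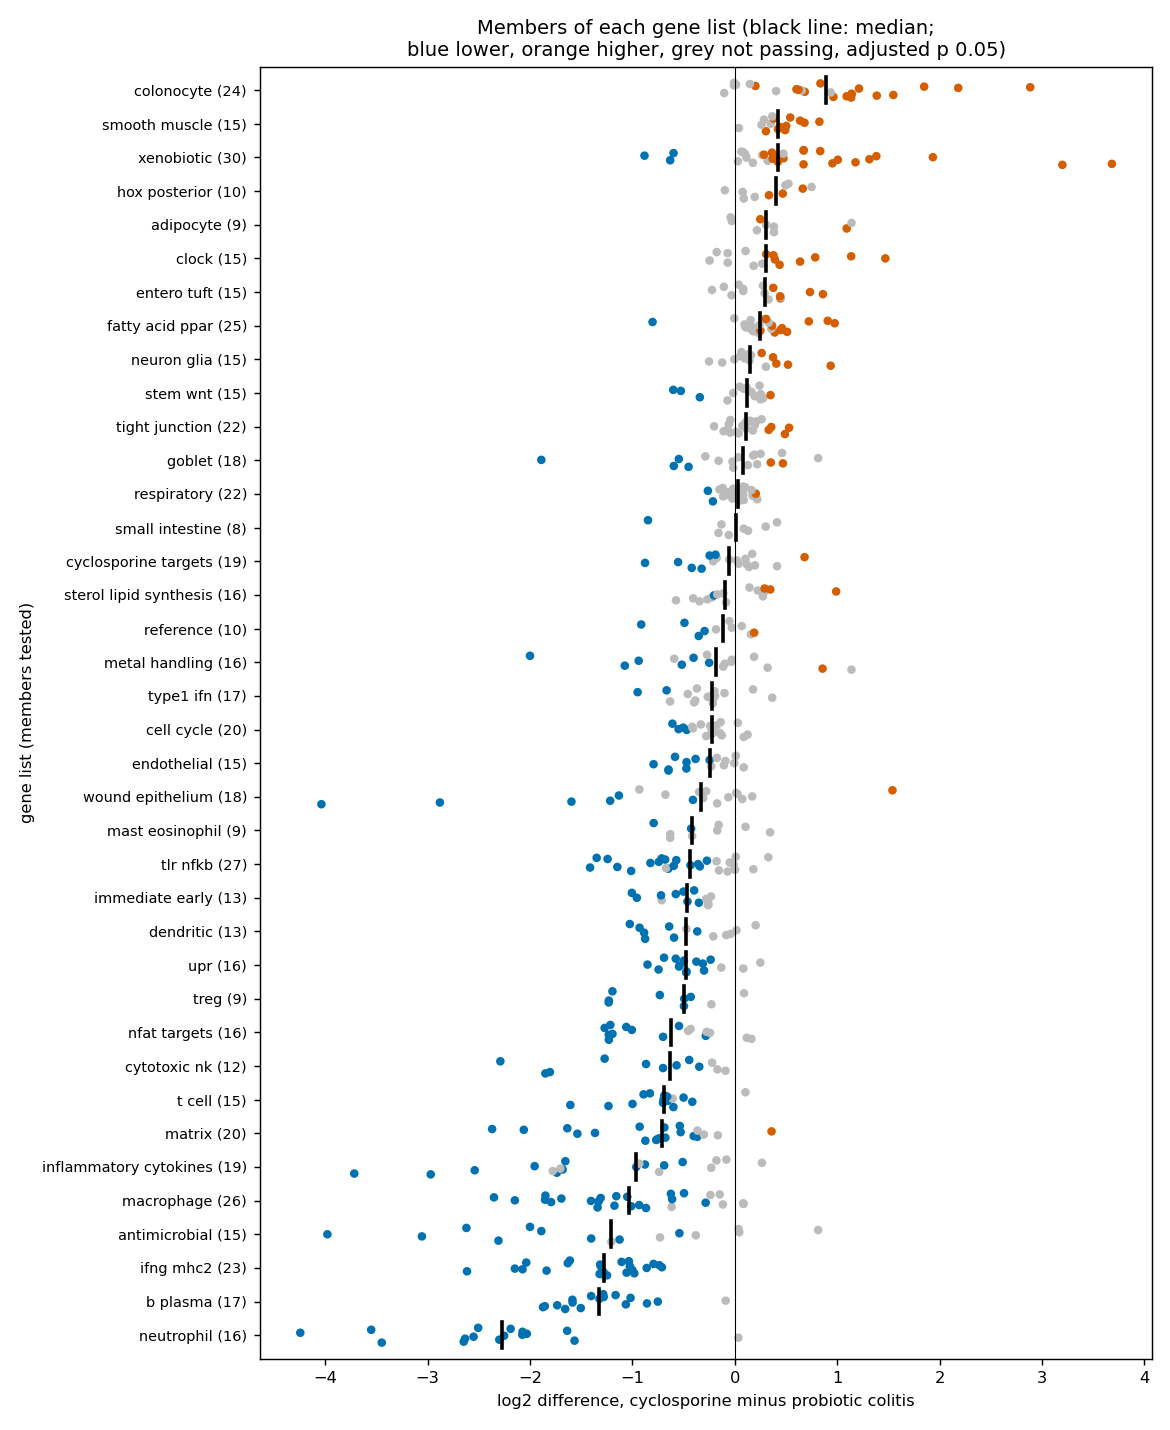
Each point is 1 tested gene of a list with at least 5 tested genes, at its log2 difference between cyclosporine and probiotic colitis; blue and orange mark genes lower and higher at adjusted p under 0.05, grey those that did not pass, and the black line is the list's median. Neutrophil genes lie farthest to the left (median -2.28) and colonocyte genes farthest to the right (0.89).

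Some genes that mark the make-up, timing or handling of the tissue also passed the test between these groups. Of all tested genes 11.3% were higher, and the counts of small lists below stand against that share. Smooth muscle genes were higher in cyclosporine for 10 of 15 members, with list means of 9.45 to 9.95 in the probiotic and 9.68 to 10.33 in the cyclosporine mice, which overlapped. Casq2, a calcium store protein of muscle, was higher by 0.83 ± 0.16. That count was 6 without probiotic mouse 5, 2 without probiotic mouse 7 and 4 without cyclosporine mouse 7 or 9. Neuron and glia genes were higher for 5 of 15, with Snap25, a synaptic protein, at 0.94 ± 0.13 and list means of 6.82 to 6.94 and 6.78 to 7.22. The neuron and glia count was 3 when any array other than probiotic mouse 8 and cyclosporine mouse 4 was left out. Genes of the posterior Hox clusters were higher for 3 of 10, with list means of 7.33 to 7.62 and 7.77 to 7.84, and the count was 1 without probiotic mouse 7 and 5 without probiotic mouse 8. Adipocyte genes were higher for 2 of 9, with list means of 6.88 to 7.62 and 6.95 to 8.22, and the count was 0 without probiotic mouse 3, 5 or 7 or cyclosporine mouse 4 or 7, 1 without cyclosporine mouse 10 and 5 without cyclosporine mouse 9. The part of these markers in the other differences was not tested.

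Clock genes were higher in cyclosporine for 8 of 15 tested members, with none lower and a median of 0.31. Nr1d1, the clock repressor REV-ERB alpha, read 8.66, 8.33, 8.21 and 8.89 with probiotic and 9.78, 10.06, 10.09 and 10.03 with cyclosporine, against means of 10.27 in healthy colon and 8.61 in untreated colitis. The groups were apart, at 1.47 ± 0.21 (adjusted p = 0.000151). Dbp and Per3, outputs and parts of the clock, differed by 1.14 ± 0.24 and 0.64 ± 0.10. Immediate early genes were lower for 8 of 13 members, with list means of 8.28, 8.34, 8.82 and 9.46 in the probiotic mice and 8.10 to 8.26 in the cyclosporine mice. Dusp1, a phosphatase induced by stress, differed by -0.72 ± 0.18, and probiotic mouse 5 at 8.72 lay below cyclosporine mouse 7 at 8.76. The count of 8 was 1 without probiotic mouse 7, 3 without probiotic mouse 8 or cyclosporine mouse 4 or 9, and 4 without cyclosporine mouse 7 or without the 3 arrays that stood apart. The labels used here do not give the hour of collection, and the part of clock and immediate early genes in the other differences was not tested.

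Reference genes differed as well, 4 of 10 being lower and 1 higher, with a median of -0.12. Gusb, a lysosomal glucuronidase, was lower, at -0.92 ± 0.11, Pgk1, of glycolysis, at -0.49 ± 0.09, and Actb, beta-actin, at -0.35 ± 0.08. B2m, the light chain of MHC class I, differed by -0.30 ± 0.08, with overlap between cyclosporine mouse 4 at 13.37 and probiotic mouse 8 at 13.33. Tbp, a general transcription factor, was the higher gene, at 0.19 ± 0.06, and lost its call without probiotic mouse 3, 5 or 7 or cyclosporine mouse 4, 7 or 9 (adjusted p 0.061 to 0.116).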

How the data were processed

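Total RNA of the middle colon of 20 mice, 1 Affymetrix array per mouse, was measured in 5 groups of 4; the series calls them biological replicates. The deposited values are log2 expression per probe set, made by the authors with RMA, a tool the submitters' processing notes name. Its version and the chip annotation are not given in the labels. RMA sets all arrays to a like distribution, so differences are relative to the bulk of genes. Of 41801 probe sets, 29195 had values and 12606 had none. The platform table gave 1 gene symbol for 22360 of them, several for 1013 and none for 5822, and only the first kind was used; 16660 of the tested genes were found in the RefSeq table. The values were used as deposited. A probe set was kept above 5.30, the 25th percentile, on at least 4 arrays, and where a gene had several (607 genes) the one of highest mean was taken, which left 16739 of 21423 genes.

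Group means of all 20 arrays were fitted with limma 3.58.1 in R 4.3.3 (lmFit and eBayes, 15 residual and 4.03 prior degrees of freedom), with Benjamini-Hochberg adjustment over all tested genes and a threshold of 0.05. The fit was tested on simulated data. Genes named were the 15 highest and 15 lowest differences that passed without overlap of the 4 and 4 arrays (leaving out predicted genes, small RNAs and receptor segments), up to 5 members of each of 39 lists with the smallest p, and the calcineurin pathway; genes named outside this rule are said to be so, and those named as a list's only call in a direction were picked after their values were seen. Of the 30 genes named for size, 8 had a mean below that level in at least 1 of the groups compared. Lists are described by counts and medians, without a set test. Every list count stands against 11.3% higher and 12.0% lower among all tested genes. The comparison and the lists were chosen with earlier results of these data known. Precision is limited by 4 arrays a group. Animal numbers are names within a group, and the groups compared share only the number 7, so no pairs were formed. Alternatives changed the filter, the normalization, the variance model, array weights, the choice of probe sets, the arrays in the fit and the animal number as a block, and left out arrays.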

Additional observations from a re-analysis of the deposited data

Results flagged for a closer look

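Among the genes named in the text and the list means, some groups had 1 mouse far from the other 3. These were 40 of 386 tested groups of genes and 8 of 78 of lists. For a single group chance gives about 1 in 20. The groups share the same arrays and are not independent, so the counts are not a test against that rate. Probiotic mouse 8 accounts for 38 of the 48 cases.

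In probiotic mouse 8 these inflammatory and immune genes were far below the other mice of its group. Retnlg was 5.02, with the others at 9.28 to 10.16, and Saa3 was 7.21, with the others at 10.84 to 11.56. Nos2 was 8.53, Cxcr2 6.71, Csf3r 7.16 and Cxcl5 7.47. Clec7a was 8.61, Irf8 8.59, H2-Ab1 11.95, Psmb10 9.85, B2m 13.33 and Thy1 7.52. Outside the immune genes, Col4a1 was 8.59, Eng, of endothelium, 8.63, Sdf2l1 8.67, Calr 12.10, Prom1 9.45 and Gusb 8.74. The list means of macrophage genes (8.29), interferon gamma and antigen presentation genes (8.51), type I interferon genes (7.44) and metal-handling genes (8.53) were low in the same mouse.

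Epithelial and metabolic genes of probiotic mouse 8 were far above the other mice of its group. Mptx1 was 9.96, with the others at 6.70 to 6.96, and Hao2 was 10.41, with the others at 8.48 to 8.72. Slc26a2 was 10.82, Sycn 10.21, Tppp 7.70, Gsdmc3 9.44, Sult1a1 10.02, Maoa 11.10, Cyp2f2 7.91 and Cyp2d12 7.74. Ppargc1a was 9.75, Pyy, a peptide of L cells, 10.50, Ocln 10.63 and Ppp3cb 9.83. The list means of tight junction genes (9.18) and fatty acid oxidation genes (8.45) were high.

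Fewer cases fell on other mice. Cyclosporine mouse 10 was high for Cxcl5 (7.71), Irf8 (8.43), Nfkb2 (8.45) and Ccr4, a chemokine receptor of T cells (5.45). Cyclosporine mouse 4 was high for Gsdmc3 (10.41), Sult1a1 (11.05) and the mean of cytotoxic and NK cell genes (6.38). Cyclosporine mouse 9 was low for Slc11a1 (6.53) and for the mean of macrophage genes (7.51). Probiotic mouse 7 was high for Mzb1 (9.12).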

How the results depend on the processing

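The count of genes higher in cyclosporine ran from 1218 to 2302 when 1 array was left out, and of genes lower from 1480 to 2280; genes at least 2-fold higher ran from 81 to 155 and at least 2-fold lower from 350 to 505. No paired analysis was possible because animal numbers are names within a group; with the animal number as a replicate block over all 20 arrays, 970 genes were higher and 1130 lower, in place of 1884 and 2006. The other alternatives to the filter, normalization, variance model, probe sets and arrays in the fit kept these counts within 1.5 times, from 1409 to 2599 higher and from 1635 to 2527 lower. The correlation with the colitis change, an addition made after seeing the data, lay between -0.77 and -0.84 wherever it was computed. It was not computed in the fits of 8 or 12 arrays, which hold no healthy mice. Of 4502 recomputed gene values 4127 kept their call, 297 lost it, 78 gained it and 0 reversed, and 139 of the 204 named genes that passed did so under every alternative. Of 2220 recomputed list values 1963 stayed within the limits. Centring moved the median of all genes from 0.01 to 0.06, below 0.1. Signal over background limits dim genes such as Cyp2c69, and 4 mice a group limit small differences.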

Other observations

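Some genes differed between the treatments although colitis itself did not move them detectably. Of the 3890 genes that passed, 385 had an unadjusted p above 0.5 for untreated colitis against healthy colon. Of these, 187 were higher and 198 lower in cyclosporine. The share of all tested genes with such a p was not computed. The count alone therefore does not show whether such genes were common or rare among those that passed. The examples below were picked after their values were seen. Serpinb9, an inhibitor of granzyme B, read 7.77, 7.66, 7.82 and 7.43 in the probiotic mice and 6.88 to 6.98 in the cyclosporine mice, with a mean of 7.02 in both untreated colitis and healthy colon. The probiotic mice alone stood high, and the difference was -0.74 ± 0.11 (adjusted p = 0.000149). Ntng2, a netrin-like membrane protein, differed by -0.70 ± 0.12, and from untreated colitis by 0.58 with probiotic and -0.12 with cyclosporine.

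Ggh, which trims folate chains, read 10.35, 10.20, 10.49 and 10.76 with probiotic and 11.11 to 11.27 with cyclosporine, with 11.11 in untreated colitis and 11.17 in healthy colon. Here the probiotic mice stood low, and the difference was 0.74 ± 0.11. Fabp2, the intestinal fatty acid carrier, differed by 0.72 ± 0.19 in the same manner, and from untreated colitis by -0.77 with probiotic and -0.05 with cyclosporine. Dthd1, a gene with a death domain, stood high in the cyclosporine mice instead, at 6.98 to 7.69 against 5.84 to 6.76 with probiotic, 6.61 in untreated colitis and 6.51 in healthy colon. Serpinc1, antithrombin, differed by 0.68 ± 0.13, and from untreated colitis by 0.36 with cyclosporine and -0.32 with probiotic.

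The counts of metal-handling genes were not given above, although Steap4, a metalloreductase, was described. Of 16 tested metal-handling genes 6 were lower and 1 was higher, with a median of -0.18. The higher gene, Hamp2, of the hepcidin family, at 0.86, lost its call without probiotic mouse 3, and 2 genes were higher without probiotic mouse 8. Slc11a1, the metal transporter of phagocyte vacuoles, differed by -1.07 ± 0.26, Hmox1, haem oxygenase, by -0.94 ± 0.24, and Tfrc, the transferrin receptor, by -0.52 ± 0.12. Tfrc read 10.39, 10.04, 9.90 and 9.96 with probiotic and 9.42 to 9.68 with cyclosporine, without overlap. Mast cell and eosinophil genes were lower for 2 of 9 tested members, among them Il5ra, the interleukin 5 receptor, at -0.79 ± 0.18. That count was 1 without probiotic mouse 5 or 7 or cyclosporine mouse 9 or 10, and 4 without cyclosporine mouse 4.

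Of 16 sterol and lipid synthesis genes 3 were higher and 1 was lower. The number higher was 0 without probiotic mouse 3 or 5 or cyclosporine mouse 7 and 1 without probiotic mouse 7 or cyclosporine mouse 4, and none was lower when any array other than probiotic mouse 8 and cyclosporine mouse 9 was left out. Of 8 small intestinal genes Lyz1, a Paneth cell lysozyme, was lower, at -0.85. It lost its call without probiotic mouse 5 or 7 or cyclosporine mouse 7 or 9. Lyz2, the lysozyme of the macrophage list, was lower as well, at -1.33. Whether the probe sets tell Lyz1 and Lyz2 apart was not tested. The 1 tested erythroid gene did not pass.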
